A study of Mus musculus with 12 samples.

Results

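The 46 genes described here encode secreted plasma proteins of the liver, in 5 roles. They comprise 12 carriers and transport proteins, 6 apolipoproteins, 13 genes of coagulation, fibrinolysis and adhesion, 9 inhibitors and 6 complement genes. They were chosen by gene symbol from a list of such proteins. Of 71 array features whose annotation carried a member's symbol, 62 had a ratio on all 12 arrays. Those 62 were averaged per gene for the test. Tested genes that lost features this way were Apoa1 (8 of 10 used), Apoc3 (1 of 2) and Kng1 (1 of 2). Of the 46, 44 had a feature on the array, and C3 and Gc had no row in the probe table used here. A ratio on all 12 arrays was needed for the test across genes, and 39 of the 46 passed, among 16549 genes in all. The 5 that had a feature but were left out of that test were Ttr, Fgg, F5, C8a and C9.

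The study set actinomycin D and prolactin against serum-free controls in 2 mouse liver cell lines, Hepa 1-6 and AML12. Hepa 1-6 is a hepatoma line, and AML12 is a hepatocyte line from mice with a TGF-alpha transgene. The labels give hepatoma as the source of both. Each line is grown as an established culture, so the groups model liver cells without the other cells of the organ. All cells were kept in DMEM with fetal bovine serum, and AML12 cells also received dexamethasone and insulin. All groups of both lines then spent the night without serum or additives. The treated groups received 10 µg/mL of actinomycin D, which binds DNA and blocks transcription, or 200 ng/mL of ovine pituitary prolactin, a hormone that signals through JAK2 and STAT5, for 8 h. The controls received neither agent. The 6 groups were therefore Hepa 1-6 with actinomycin D, with prolactin and without either, and AML12 with actinomycin D, with prolactin and without either, with 2 arrays in each.

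Hepatocytes secrete most proteins of blood plasma. Albumin and other carriers bind hormones, metals, haem and lipids, apolipoproteins build the lipoprotein particles, and the coagulation and complement factors circulate as precursors that proteolysis activates. The acute-phase members among them, such as haptoglobin, the orosomucoids and fibrinogen, are raised in liver by cytokines, chiefly interleukin-6 through STAT3 and C/EBP factors. Their genes are bound in hepatocytes by HNF1, HNF4, FOXA and C/EBP proteins.

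Every value is a log2 ratio of the Cy5-labelled sample over Cy3-labelled reference RNA from a commercial pool (Universal Mouse Reference RNA) of 11 cell lines, with the same dyes on every array. This direction rests on the dye named for each channel in the labels and on the software's convention. The labelling text given with the samples names Cy3 alone, so the dyes are not beyond doubt, and were they the other way round every sign below would turn. A ratio is thus relative to that pool and to the other transcripts on the array, and is no amount of RNA per cell. Base 10 was assumed for the deposited logarithm. Were it base 2, each log2 value would have to be divided by 3.32, and no sign or p-value would change. Each array held 37397 to 40281 ratios of 45018 features, and replicate arrays correlated at 0.975 to 0.985 across genes. The label of liver cells was checked with marker genes. Of 8 hepatocyte markers, 5 were tested and 4 of these lay above the reference in each of the 6 groups. Hnf4a averaged 3.46 in Hepa 1-6 controls and 3.63 in AML12 controls, whereas Asgr1 lay below the reference in both. Of 5 cholangiocyte markers 4 were tested, and 3 lay above the reference in each AML12 group but 1 in each Hepa 1-6 group. Their means ran from -4.15 to 0.93 in Hepa 1-6 controls and from -4.83 to 4.07 in AML12 controls. In AML12 controls their median was 2.61, beside 1.6 for the hepatocyte markers. No stellate cell or fibroblast marker, of 5 tested, lay above the reference in any group. Of 4 endothelial markers 1 or 2 lay above it in each group, at a mean of up to 0.59, and of 3 macrophage or leukocyte markers tested 1 did, Clec4f in Hepa 1-6 with prolactin (0.10). Features of near-identical gene copies, such as Orm1 and Orm2 or C4b and its paralog, may share signal, and this was not tested.

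**Figure D1:**
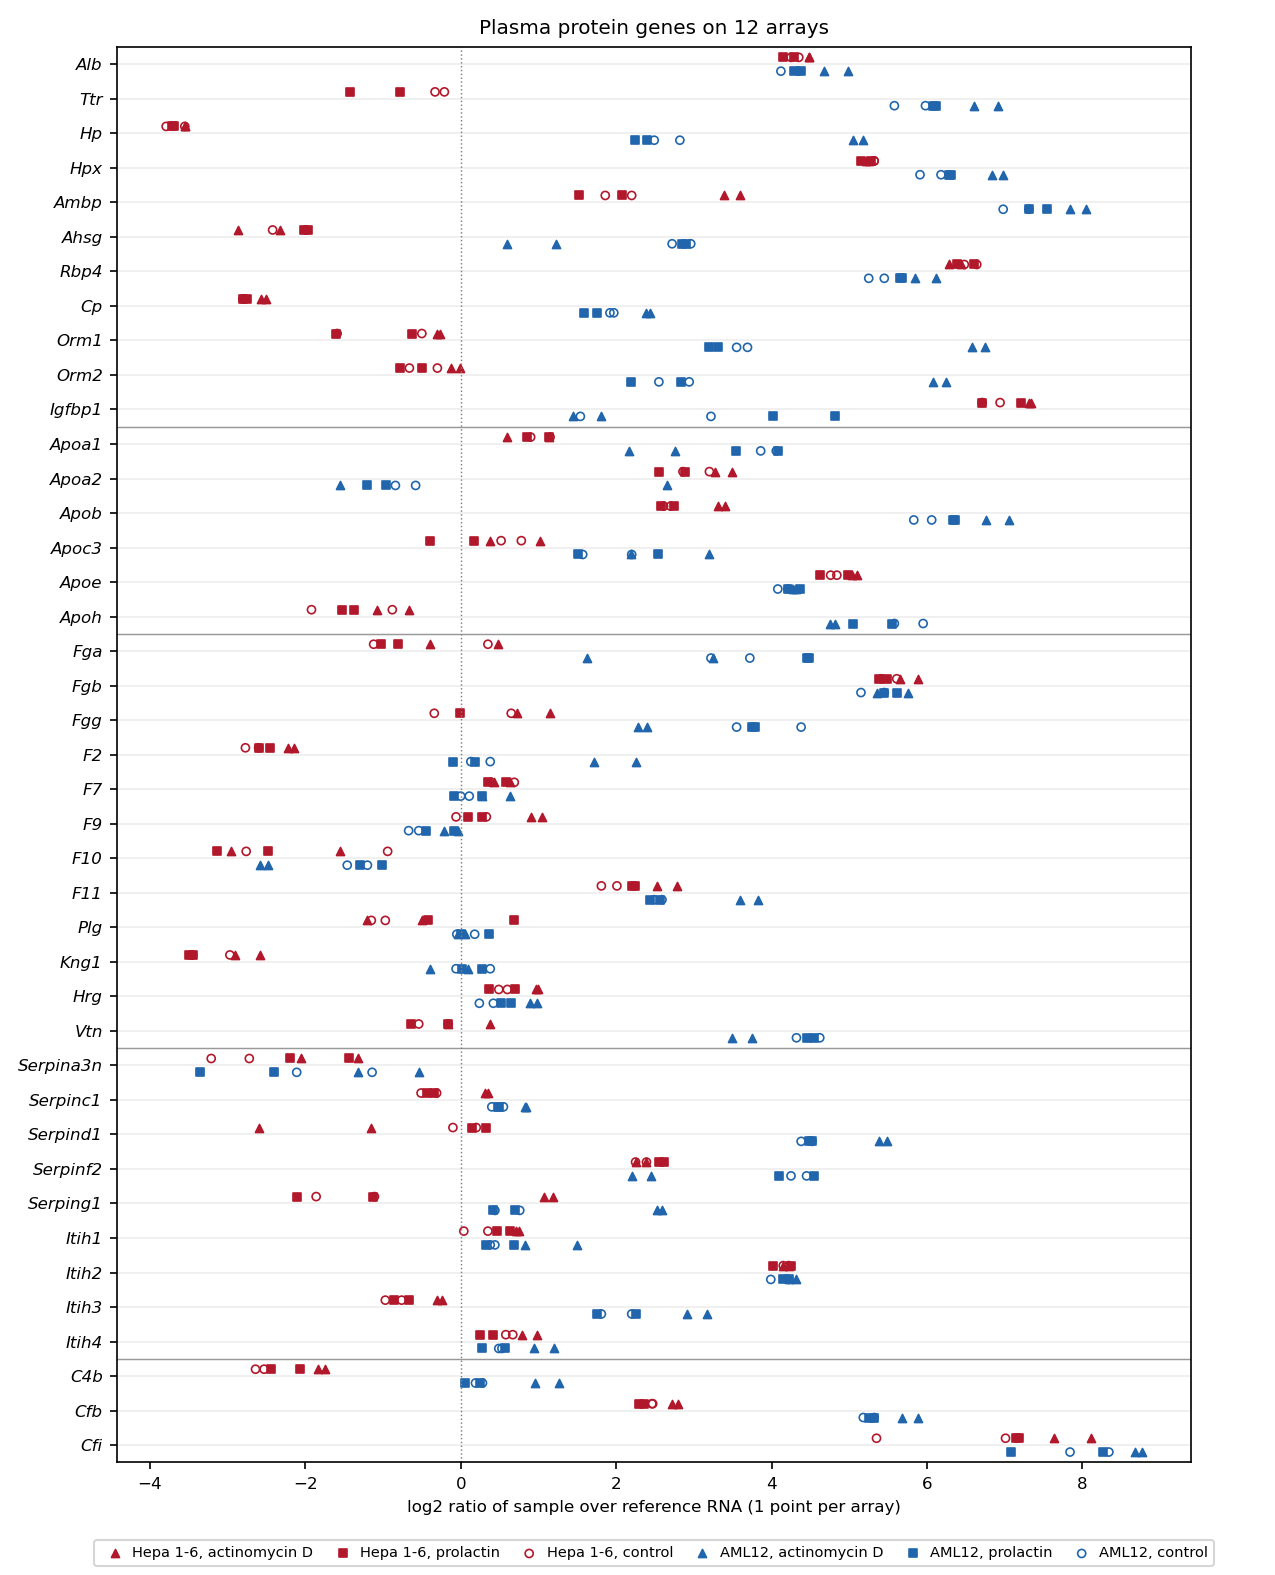
Log2 ratio of sample over reference RNA (x axis) for each array, for the plasma protein genes with ratios (rows, grouped by role from carriers at the top to complement at the bottom). Red marks Hepa 1-6 and blue AML12, triangles actinomycin D, squares prolactin and open circles controls. The blue points lie to the right of the red ones for genes such as Hp, Apoh and Vtn, and to the left for Igfbp1.

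More plasma protein genes differed between the lines than changed with either agent within a line. In serum-free controls 32 of the 39 tested members differed, against 61.9% of all genes. Of these, 26 were lower in Hepa 1-6 than in AML12, against 29.8% of all genes, and 6 were higher, against 32.1%. The other 7 did not pass the threshold, an adjusted p of 0.05 from limma. The median difference of the 39 was -1.91, beside 0.04 for all genes tested. In levels, 20 of the 39 lay above the reference pool on both Hepa 1-6 control arrays and 16 below it on both. In AML12 controls 32 lay above on both arrays and 4 below. By role, 7 of 10 carriers, 4 of 6 apolipoproteins, 6 of 11 coagulation genes, 6 of 9 inhibitors and all 3 complement genes tested were lower in Hepa 1-6. Beside these differences, the cholangiocyte markers Krt19, Krt7 and Sox9 were also lower in Hepa 1-6 and Epcam was higher. Of other markers tested, 1 of 5 hepatocyte and 2 of 5 stellate cell or fibroblast markers were higher in Hepa 1-6. Lower there were 1 of 4 endothelial and 1 of 3 macrophage or leukocyte markers. The part of these markers in the result was not tested.

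Among the carriers with ratios on all arrays, haptoglobin, Ambp, fetuin-A, ceruloplasmin and Orm1 were lower in Hepa 1-6 by more than 4 log2 units. Haptoglobin (Hp), which binds free haemoglobin, had log2 ratios of -3.55 and -3.79 in Hepa 1-6 controls and 2.82 and 2.49 in AML12 controls. The difference was -6.33 ± 0.12 (SE, limma adjusted p = 5e-09), and the haptoglobin ratios of the lines did not overlap. No mark of detection was used, so a ratio as low as that of haptoglobin in Hepa 1-6 may lie at the detection floor, which was not tested, and no fold is given. Ceruloplasmin (Cp), the copper carrier, was at -2.80 on both Hepa 1-6 control arrays and at 1.92 and 1.97 in AML12, a difference of -4.75 ± 0.07 (adjusted p = 2.2e-09). All 4 ceruloplasmin values were thus far apart by line and close within it. The low ceruloplasmin ratios in Hepa 1-6 may likewise lie at the detection floor, which was not tested. Fetuin-A (Ahsg), which inhibits mineral deposition, differed by -5.04 ± 0.25, and Ambp, the precursor of alpha-1-microglobulin and bikunin, by -5.11 ± 0.21. Ambp stayed above the reference in both lines, at 1.86 and 2.20 in Hepa 1-6 controls and 7.31 and 6.98 in AML12 controls. The orosomucoids, acute-phase drug carriers, differed by -4.67 ± 0.38 (Orm1) and -3.23 ± 0.23 (Orm2). Hemopexin (Hpx), the haem carrier, differed by only -0.73 ± 0.09 (adjusted p = 0.0002).

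Albumin and the vitamin A and insulin-like growth factor carriers behaved otherwise. Albumin (Alb), the main plasma protein, had ratios of 4.25 and 4.35 in Hepa 1-6 controls and 4.35 and 4.12 in AML12 controls. These albumin arrays overlapped between the lines, and the difference was 0.07 ± 0.12 (95% interval -0.20 to 0.34, adjusted p = 0.66). Retinol-binding protein (Rbp4), at 6.48 and 6.64 in Hepa 1-6 and 5.45 and 5.25 in AML12, was 2.32-fold higher in Hepa 1-6 (1.21 ± 0.13 on the log2 scale, adjusted p = 5.4e-05). Igfbp1, which binds insulin-like growth factors, had ratios of 6.71 and 6.94 in Hepa 1-6 controls and 3.22 and 1.54 in AML12 controls. It was higher in Hepa 1-6 by 4.45 ± 0.50 (adjusted p = 8.1e-05), although its AML12 control arrays differed from each other more than those of any other member. Transthyretin (Ttr), the thyroxine and retinol-binding protein carrier, gave no ratio on the Hepa 1-6 actinomycin D arrays and was tested only in a fit added after seeing the data, which asked for ratios on the arrays compared. It was at -0.33 and -0.21 in Hepa 1-6 controls and at 5.98 and 5.58 in AML12 controls, lower in Hepa 1-6 by 6.05 in that fit (difference -6.05 ± 0.23, adjusted p = 7.1e-07).

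**Figure D2:**
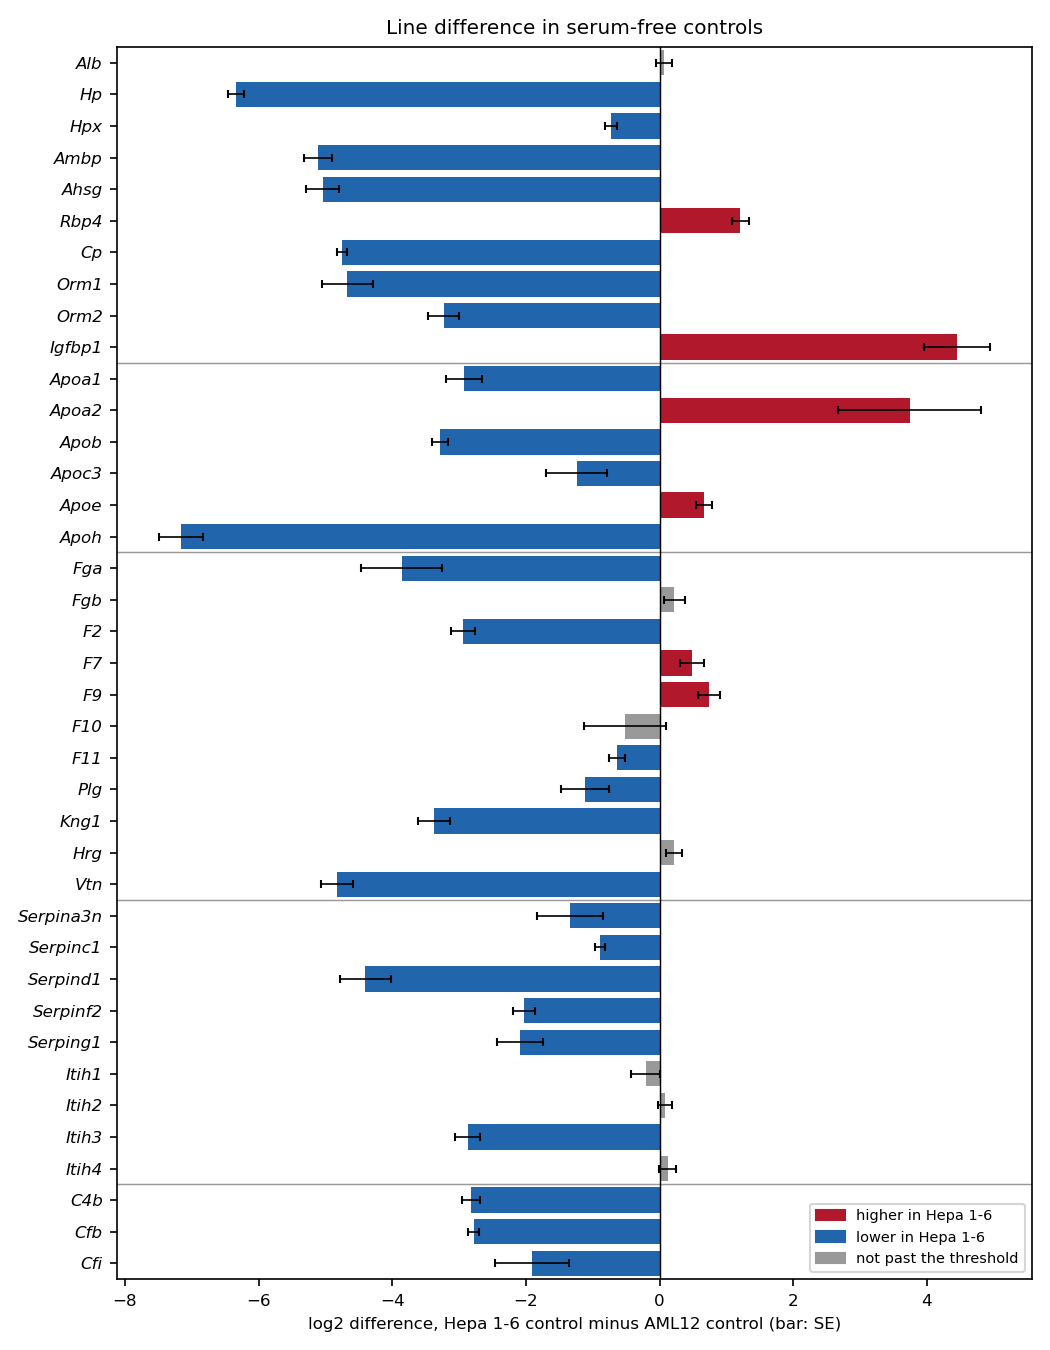
Log2 difference of Hepa 1-6 control minus AML12 control (x axis, bar ± SE) for the 39 plasma protein genes tested, grouped by role from carriers at the top to complement at the bottom. Red bars passed the threshold and are higher in Hepa 1-6 (6 genes), blue bars passed and are lower (26 genes), and grey bars did not pass (7 genes).

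The apolipoproteins held both the deepest deficit and a large excess in Hepa 1-6. Apoh, which binds anionic phospholipids, had ratios of -0.88 and -1.92 in Hepa 1-6 controls and 5.95 and 5.58 in AML12 controls. Its difference of -7.16 ± 0.33 was the largest of the 39, 143-fold lower in Hepa 1-6 (adjusted p = 4.1e-07). Apob, the structural protein of very-low-density lipoprotein, differed by -3.29 ± 0.12 and Apoa1, that of high-density lipoprotein, by -2.93 ± 0.27. All 5 Apob features were lower in Hepa 1-6 controls than in AML12 controls, although they spread within an array by an SD of 0.53 to 1.63. Apoa2, the second protein of high-density lipoprotein, went the other way, at 2.86 and 3.20 in Hepa 1-6 controls and -0.58 and -0.84 in AML12 controls (3.74 ± 1.07, adjusted p = 0.016). The Apoa2 arrays of the lines did not overlap, and its wide SE comes with an SD of 2.97 between the AML12 actinomycin D arrays. Apoe, which carries lipoproteins to their receptors, was 1.58-fold higher in Hepa 1-6 (0.66 ± 0.12, adjusted p = 0.0013), and its 10 features spread by an SD of at most 0.11 on any array. Apoc3, an inhibitor of triglyceride clearance, was lower by a difference of -1.24 ± 0.46 (adjusted p = 0.045).

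In the coagulation group the 3 fibrinogen chains, whose genes lie side by side on chromosome 3, did not differ alike between the lines. The beta chain gene Fgb had ratios of 5.41 and 5.61 in Hepa 1-6 controls and 5.45 and 5.15 in AML12 controls, which overlapped (0.22 ± 0.16, adjusted p = 0.29). The alpha chain gene Fga had ratios of 0.35 and -1.12 in Hepa 1-6 controls and 3.72 and 3.22 in AML12 controls, a difference of -3.86 ± 0.61 (adjusted p = 0.00066). The gamma chain gene Fgg, without a ratio on 1 Hepa 1-6 prolactin array, was at 0.65 and -0.34 in Hepa 1-6 controls and at 4.38 and 3.55 in AML12 controls. In the added fit Fgg differed by -3.82 ± 0.37 (adjusted p = 9.3e-05), so Fga and Fgg were lower in Hepa 1-6 and Fgb did not pass. Vitronectin (Vtn), an adhesion protein, differed by -4.82 ± 0.24, kininogen (Kng1), the source of bradykinin, by -3.38 ± 0.24, and prothrombin (F2) by -2.94 ± 0.18. The Kng1 value rests on 1 of its 2 features, since the other gave no ratio in Hepa 1-6 controls. With prolactin that other feature stood at -0.27 and -0.36 in Hepa 1-6 and at 0.42 and 1.32 in AML12. The tested one stood at -3.45 and -3.49 in Hepa 1-6 and at 0.27 and 0.02 in AML12, a wider gap. Plasminogen (Plg), the precursor of plasmin, differed by -1.12 ± 0.36 and factor XI (F11) by -0.63 ± 0.12. Factors IX (F9) and VII (F7) were higher in Hepa 1-6, by 0.74 ± 0.16 (adjusted p = 0.0044) and 0.49 ± 0.18 (adjusted p = 0.04). The 2 features of F9 differed by 1.14 and 0.34, and with the one of higher mean ratio alone its call was lost (0.35, adjusted p = 0.085). F10 lies next to F7 on chromosome 8 and did not pass, with a difference of -0.52 ± 0.61, nor did histidine-rich glycoprotein (Hrg), at 0.22 ± 0.12. Factor V (F5) gave a ratio on 1 array alone, 1.84 on a Hepa 1-6 actinomycin D array.

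The inhibitors that passed were all lower in Hepa 1-6. Heparin cofactor II (Serpind1), which blocks thrombin, had ratios of -0.10 and 0.20 in Hepa 1-6 controls and 4.52 and 4.38 in AML12 controls, a difference of -4.40 ± 0.38 (adjusted p = 1.7e-05). Antiplasmin (Serpinf2) differed by -2.03 ± 0.16 and the C1 inhibitor gene (Serping1) by -2.09 ± 0.34. The acute-phase serpin Serpina3n differed by -1.34 ± 0.49 (adjusted p = 0.044), and antithrombin (Serpinc1) by -0.89 ± 0.08 (adjusted p = 2.6e-05). Antithrombin has 2 features, and they disagreed: with the one of higher mean ratio alone the difference was 0.15, the opposite sign. The inter-alpha-trypsin inhibitor heavy chains, which stabilise hyaluronan, split sharply. Itih3 was at -0.97 and -0.76 in Hepa 1-6 controls and at 2.20 and 1.81 in AML12 controls (-2.87 ± 0.19, adjusted p = 3.8e-06). Its neighbours on chromosome 14, Itih1 (-0.21 ± 0.22) and Itih4 (0.12 ± 0.13), and Itih2 (0.08 ± 0.10) did not pass.

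All 3 complement genes tested were lower in Hepa 1-6 controls. C4b differed by -2.82 ± 0.14, factor B (Cfb), the protease of the alternative pathway, by -2.78 ± 0.08, and factor I (Cfi), which inactivates C3b and C4b, by -1.91 ± 0.55 (adjusted p = 0.016). Factor B stayed well above the reference pool in both lines, at 2.46 and 2.47 in Hepa 1-6 and 5.32 and 5.18 in AML12. Of the terminal components, C8a gave no ratio on any array, and C9 gave ratios near that of the pool on some arrays, from -0.54 to 0.39. Of the 32 calls, 24 held under every alternative tried. Those of Apoa2, Apoc3, F7, Plg, Serpina3n and Cfi were lost without at least 1 control array, with an adjusted p of up to 0.068 for Apoa2, 0.21 for Apoc3 and F7, 0.11 for Plg, 0.24 for Serpina3n and 0.088 for Cfi.

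To show sequence beside these differences, the 250 bases before the gene start are printed for 5 members, from RefSeq on GRCm38.p6, 5′ to 3′ on the gene's strand. They are Apoh (widest line difference), Alb (no call) and the fibrinogen genes, which are neighbours but differ. The stretches are chr11:108395047-108395296 (plus strand) for Apoh, chr5:90460620-90460869 (plus) for Alb, chr3:83025903-83026152 (plus) for Fga, chr3:83049864-83050113 (minus) for Fgb and chr3:83007474-83007723 (plus) for Fgg. Capitals mark every match, on either strand, to an HNF1 motif or to a STAT (TTCNNNGAA), C/EBP (TTGCNNAA), HNF4 (CAAAGTCCA) motif or the letters TATAAA of the TATA box.
Apoh: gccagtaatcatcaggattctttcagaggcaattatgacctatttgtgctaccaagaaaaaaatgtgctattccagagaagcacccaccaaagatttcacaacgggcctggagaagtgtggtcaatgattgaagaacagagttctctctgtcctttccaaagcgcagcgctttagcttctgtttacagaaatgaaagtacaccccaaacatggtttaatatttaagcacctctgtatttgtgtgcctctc
Alb: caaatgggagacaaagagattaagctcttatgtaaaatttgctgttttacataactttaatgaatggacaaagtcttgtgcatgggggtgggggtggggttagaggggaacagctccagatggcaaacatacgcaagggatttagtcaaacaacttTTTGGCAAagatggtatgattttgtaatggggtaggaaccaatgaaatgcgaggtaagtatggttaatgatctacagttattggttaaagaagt
Fga: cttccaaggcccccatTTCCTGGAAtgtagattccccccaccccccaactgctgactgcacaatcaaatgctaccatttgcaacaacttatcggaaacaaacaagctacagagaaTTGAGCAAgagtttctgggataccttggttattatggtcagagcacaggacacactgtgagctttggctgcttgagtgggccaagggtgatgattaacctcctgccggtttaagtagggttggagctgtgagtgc
Fgb: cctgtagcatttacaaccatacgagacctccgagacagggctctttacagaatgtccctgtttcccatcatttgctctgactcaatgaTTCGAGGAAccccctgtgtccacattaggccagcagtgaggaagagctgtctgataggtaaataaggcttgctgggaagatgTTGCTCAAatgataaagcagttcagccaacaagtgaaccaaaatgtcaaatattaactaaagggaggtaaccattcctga
Fgg: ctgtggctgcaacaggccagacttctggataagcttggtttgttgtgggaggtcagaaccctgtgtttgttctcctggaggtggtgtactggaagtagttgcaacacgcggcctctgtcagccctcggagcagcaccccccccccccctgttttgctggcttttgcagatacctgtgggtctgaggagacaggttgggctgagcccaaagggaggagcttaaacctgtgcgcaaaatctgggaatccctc
In Fga the STAT match began 234 bases and the C/EBP match 135 bases before the gene start, and in Fgb 162 and 80 bases before it. Alb held a C/EBP match from 94 to 87 bases before the start. The windows of Apoh and Fgg held none of these letters. Among the 36 of 46 members with an entry, 16 had a C/EBP match. That motif was in 39.0% of their 41 promoters, beside 9.6% of 32851 promoters in all. The shares were 12.2% beside 7.0% for STAT, 7.3% beside 0.4% for HNF1, 17.1% beside 12.4% for TATA and 0.0% beside 0.4% for HNF4. A match describes letters alone, and a window without one says nothing of the factor. Orm1, Cfi, Serping1, Plg, Hp, Cfb, Apoc3, Kng1, Ttr and C4b had no entry.

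Actinomycin D was followed in AML12 by higher ratios for most plasma protein genes tested. Of the 39, 25 changed, against 53.6% of all genes. Of these, 20 rose, against 28% of all genes, and 5 fell, against 25.5%. The median difference from control was 0.60, beside 0.04 for all genes. Carriers made up 8 of the 20 rises and inhibitors 5, with 4 coagulation genes, 2 complement genes and 1 apolipoprotein. These are rises of a ratio relative to the other transcripts of the array. With quantile normalization in place of the authors' scaling, 14 rose and 9 fell. There 8753 of all 16549 genes were called, and their split by direction was not counted. The upper tail of all ratios was wider after actinomycin D, with 99th percentiles of 4.75 and 4.62 against 4.16 and 4.05 on AML12 control arrays, and the part of this in the counts was not tested beyond that alternative. Of the 5 hepatocyte markers tested, 2 fell (40%, against 25.5% of all genes) and 0 rose. Of the markers of other cell types, Sox9 (-2.36 ± 0.10) and Krt19 (-0.45 ± 0.10) fell and Pdgfrb rose (0.45 ± 0.07). The part of these markers was not tested.

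The orosomucoids and haptoglobin led these rises. Orm2 had log2 ratios of 6.25 and 6.08 with actinomycin D and 2.55 and 2.94 in controls, a rise of 3.41 ± 0.23 or 10.7-fold (limma adjusted p = 1.1e-05). Orm1 reached 6.74 and 6.58, against 3.55 and 3.69 in controls, a rise of 3.04 ± 0.38 (adjusted p = 0.00027). Hp was at 5.18 and 5.05 with actinomycin D and at 2.82 and 2.49 in controls, a rise of 2.46 ± 0.12 (adjusted p = 2.4e-06). In all 3 genes both treated arrays lay above both control arrays by more than 2 log2 units. Smaller rises were seen for Hpx (0.86 ± 0.09), Ambp (0.80 ± 0.21), Rbp4 (0.63 ± 0.13), Alb (0.60 ± 0.12) and Cp (0.47 ± 0.07). Ahsg alone of the carriers fell, with ratios of 1.22 and 0.59, against 2.96 and 2.72 in controls (-1.94 ± 0.25, adjusted p = 0.00033). Ttr, tested in the added fit, rose by 0.98 ± 0.23 (adjusted p = 0.01).

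The promoter of Orm2 is given because this gene had the largest rise, at chr4:63362199-63362448 (plus strand), with capitals as above.
Orm2: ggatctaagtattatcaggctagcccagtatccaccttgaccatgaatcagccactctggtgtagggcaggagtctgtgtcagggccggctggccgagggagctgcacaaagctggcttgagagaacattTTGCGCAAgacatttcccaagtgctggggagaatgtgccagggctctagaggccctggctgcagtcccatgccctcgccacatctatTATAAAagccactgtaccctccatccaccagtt
Its C/EBP match began 120 bases before the gene start and its TATA match 33 bases before it. Ambp, Orm1 and Orm2 lie near each other on chromosome 4, with 2 protein-coding genes between Ambp and Orm1 and 1 between Orm1 and Orm2.

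Apolipoproteins took both directions in AML12 with actinomycin D. Apoa1 had ratios of 2.76 and 2.17 with actinomycin D and 4.06 and 3.86 in controls, and fell by 1.50 on the log2 scale (difference -1.50 ± 0.27, adjusted p = 0.0021). Apoh fell too, at -0.98 ± 0.33 (adjusted p = 0.035), while Apob rose by 0.96 ± 0.12 (adjusted p = 0.00027). Apoc3 (0.80 ± 0.46) and Apoe (0.15 ± 0.12) did not pass. Apoa2 cannot be read here, since its actinomycin D arrays stood at 2.66 and -1.55, on either side of the controls at -0.58 and -0.84. Its difference of 1.27 ± 1.07 became -0.84 without the first actinomycin D array and 3.37 without the second, and each of these passed.

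Among the coagulation genes, prothrombin rose most. F2 was at 2.26 and 1.71 with actinomycin D and at 0.38 and 0.13 in AML12 controls, a rise of 1.73 ± 0.18 or 3.32-fold (adjusted p = 0.00012). F11 rose by 1.16 ± 0.12, Hrg by 0.60 ± 0.12 and F9 by 0.49 ± 0.16, the last with 0.02 on one feature and 0.95 on the other. Vtn fell, with a difference of -0.85 ± 0.24 (adjusted p = 0.016), and Fgg fell in the added fit (-1.63 ± 0.37, adjusted p = 0.0093). Of the other fibrinogen chains, Fgb differed by 0.25 ± 0.16 and Fga by -1.04 ± 0.61, with Fga arrays at 3.25 and 1.62 beside controls at 3.72 and 3.22. Fga passed only without the higher of its actinomycin D arrays, at -1.85. F7, F10, Plg and Kng1 did not pass, with differences of 0.40, -1.20, -0.05 and -0.31.

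The inhibitors and complement genes of AML12 mostly rose. C1 inhibitor (Serping1) was at 2.59 and 2.52 with actinomycin D and at 0.76 and 0.44 in controls, a rise of 1.96 ± 0.34 (adjusted p = 0.0016). Itih3 rose by 1.04 ± 0.19, Itih1 by 0.76 ± 0.22, Itih4 by 0.56 ± 0.13 and Serpinc1 by 0.35 ± 0.08. The 2 features of Serpinc1 moved in opposite directions. With actinomycin D 1 stood at 0.61 and 0.60, below its controls at 0.89 and 0.65. The other stood at 1.07 and 1.05, above its controls at 0.22 and 0.15. Itih2 differed by 0.17 ± 0.10 and did not pass. Antiplasmin (Serpinf2) was the exception, at 2.45 and 2.20 with actinomycin D and 4.45 and 4.25 in controls. It fell by 2.02 on the log2 scale, 4.07-fold (difference -2.02 ± 0.16, adjusted p = 2.4e-05). Serpind1, at 0.98 ± 0.38 (adjusted p = 0.061), and Serpina3n, at 0.70 ± 0.49, did not pass. C4b rose by 0.87 ± 0.14 and Cfb by 0.53 ± 0.08, while Cfi differed by 0.63 ± 0.55. Of the 25 calls in AML12, 14 held under every alternative. The rises of Alb, Apob, Hpx, Ambp, Cfb and Rbp4 were lost or turned with quantile normalization, where their differences were 0.02, 0.17, 0.07, 0.09, -0.19 and -0.08. Apob did not pass with its feature of highest mean ratio alone either (0.80, adjusted p = 0.12). Leaving out an AML12 control or actinomycin D array ended the calls of Apoh (adjusted p up to 0.16), F9 (0.15), Itih1 (0.10), Vtn (0.095), Ambp (0.085) and Serpinc1 (0.056). In all, 3 members fell without the first control or the second actinomycin D array.

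**Figure D3:**
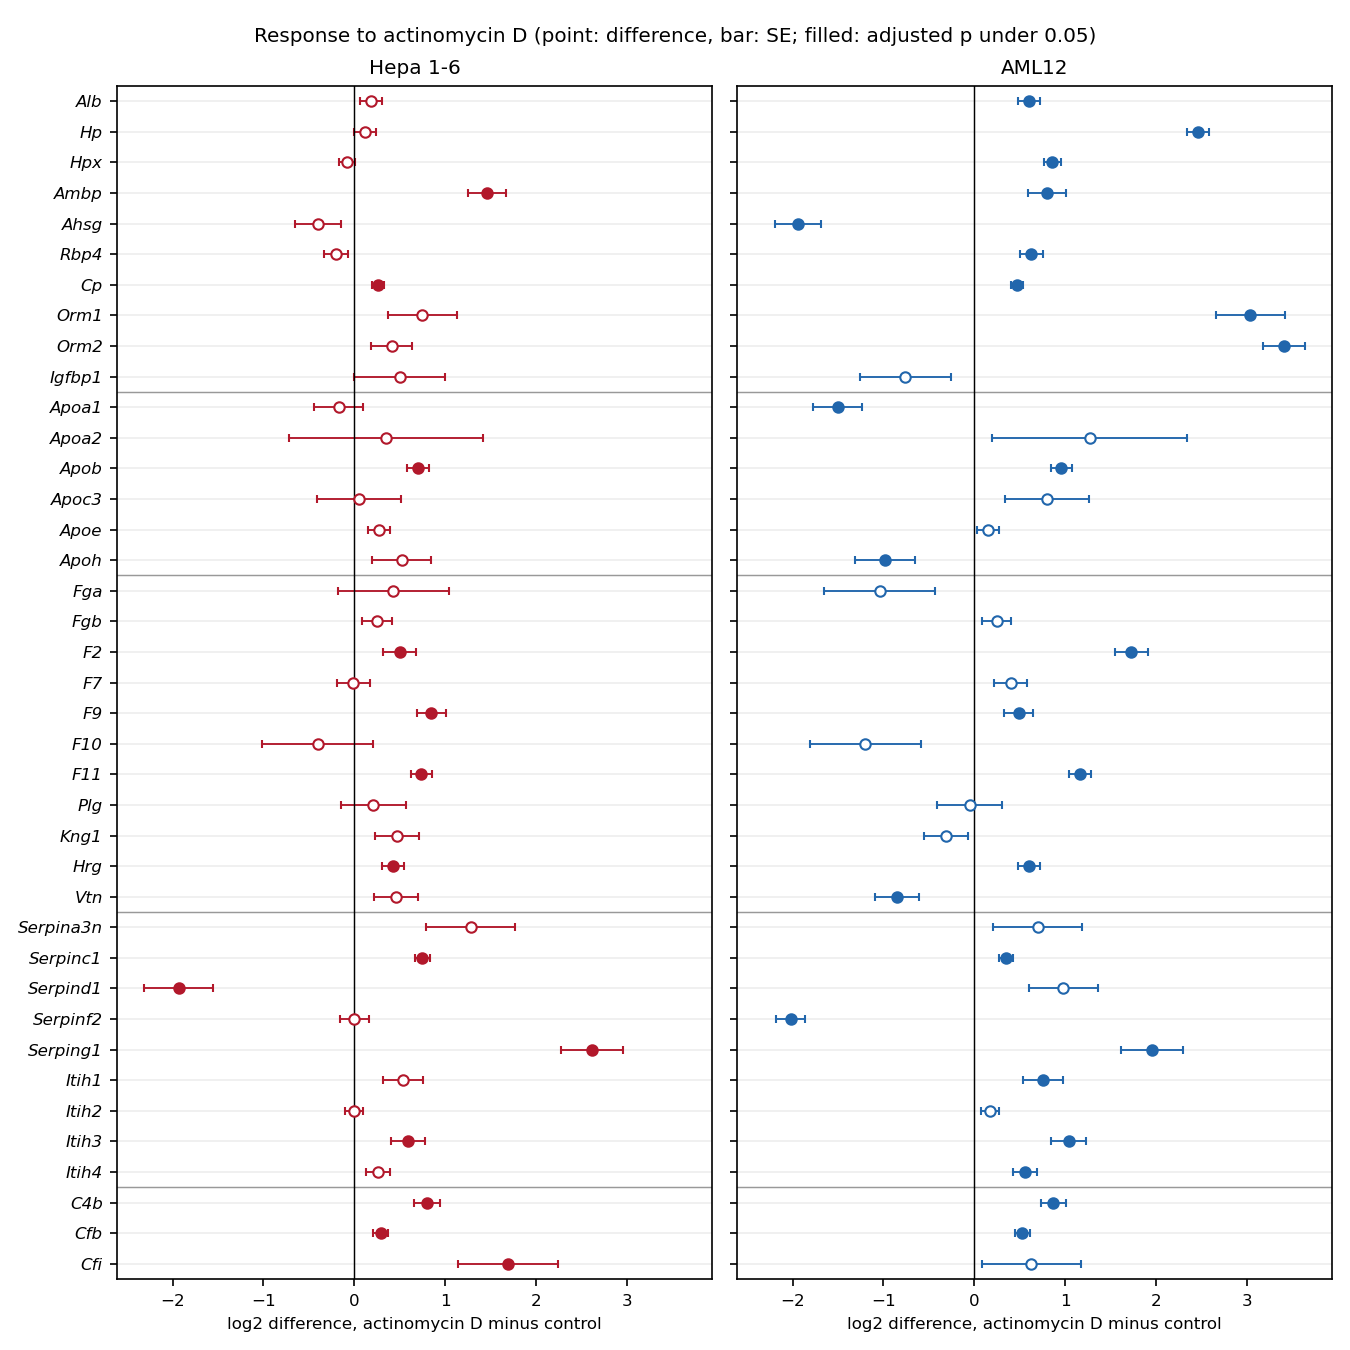
Log2 difference of actinomycin D minus control (x axis, point with ± SE) for the 39 genes, with Hepa 1-6 on the left and AML12 on the right. Filled points passed the threshold (14 in Hepa 1-6, 25 in AML12). Hp, Orm1 and Orm2 stand at 2.46 to 3.41 in AML12 and at 0.12 to 0.75 in Hepa 1-6.

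In Hepa 1-6, actinomycin D was followed by 14 changes among the 39 members, against 50.9% of all genes. They were 13 rises (33.3%, near the 27.9% of all genes) and 1 fall, against 23% of all genes. The median difference was 0.41 beside 0.07 for all genes. The largest rise was that of the C1 inhibitor gene. Serping1 was at 1.07 and 1.19 with actinomycin D and at -1.11 and -1.86 in Hepa 1-6 controls, a rise of 2.62 ± 0.34 or 6.14-fold (adjusted p = 0.0004). Both treated arrays were above the reference pool and both controls below it. Of the 5 hepatocyte markers tested, 2 fell (40%, against 23% of all genes) and 0 rose. Markers of other cell types moved as well. Of 4 cholangiocyte markers, Krt7 (0.96 ± 0.08), Epcam (0.56 ± 0.12) and Sox9 (0.48 ± 0.10) rose and Krt19 fell (-0.42 ± 0.10). Of 4 endothelial markers Cdh5 (1.12 ± 0.24) and Kdr (0.63 ± 0.12) rose, of 5 stellate cell or fibroblast markers Des (1.13 ± 0.11), and of 3 macrophage or leukocyte markers Ptprc (0.79 ± 0.15), and the part of these in the members' changes was not tested. Ambp was at 3.59 and 3.39 with actinomycin D and at 1.86 and 2.20 in controls, a rise of 1.46 ± 0.21 (adjusted p = 0.00073). Cfi rose by 1.69 ± 0.55 (adjusted p = 0.032), but its control arrays stood at 7.01 and 5.35 beside treated arrays at 8.11 and 7.64.

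The other rises in Hepa 1-6 were under 2-fold. They were F9 (0.85 ± 0.16), C4b (0.80 ± 0.14), Serpinc1 (0.75 ± 0.08), F11 (0.74 ± 0.12), Apob (0.70 ± 0.12) and Itih3 (0.59 ± 0.19), followed by F2 (0.50 ± 0.18), Hrg (0.43 ± 0.12), Cfb (0.29 ± 0.08) and Cp (0.26 ± 0.07). The features of F9 rose by 1.40 and 0.30, and with the one of higher mean ratio alone the call was lost (adjusted p = 0.15). Apob did not pass with quantile normalization (0.13, adjusted p = 0.30). Heparin cofactor II was the member that fell. Serpind1 was at -2.60 and -1.15 with actinomycin D and at -0.10 and 0.20 in Hepa 1-6 controls, a difference of -1.93 ± 0.38 (adjusted p = 0.0037). Both treated arrays lay below both controls, and the call was lost when the 4 arrays compared were fitted alone. Albumin differed by 0.18 ± 0.12, and none of the carriers beyond Ambp and Cp passed. Serpina3n, at 1.28 ± 0.49 (adjusted p = 0.061), was nearest to the threshold among the rest.

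Quantile normalization changed the Hepa 1-6 split to 8 rises and 6 falls. With it 7988 of all 16549 genes were called. Their split by direction was not counted, so no excess of rises over all genes is shown there. The 99th percentiles of all ratios were 4.38 and 4.32 with actinomycin D and 3.64 and 3.75 in Hepa 1-6 controls. Only Ambp, F11, Serpinc1, Serping1 and C4b kept their calls under every alternative. Without the second control or either actinomycin D array, 8 members rose, and the calls lost as arrays were left out were those of F2 (adjusted p up to 0.19), Cfi (0.18), Itih3 (0.16), Hrg (0.087), Cfb (0.083) and Cp (0.066).

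Set side by side, 12 members rose with actinomycin D in both lines (30.8%, beside 16.2% of all genes). They were Ambp, Apob, C4b, Cfb, Cp, F11, F2, F9, Hrg, Itih3, Serpinc1 and Serping1. Of these, only F11, Serping1 and C4b kept the call in both lines under every alternative. With quantile normalization Cfb was called as a fall in both lines (-0.19 in AML12, -0.21 in Hepa 1-6), and Apob passed in neither. The 8 that passed as rises in AML12 and not in Hepa 1-6 (20.5%, beside 10.1% of all genes) were Alb, Hp, Hpx, Itih1, Itih4, Orm1, Orm2 and Rbp4. The 5 that fell in AML12 did not pass in Hepa 1-6 (12.8%, beside 8.25%). No member rose in one line and fell in the other, beside 1.72% and 2.1% of all genes for the 2 ways, and 12 passed in neither (30.8%, the same share as of all genes). Whether the responses differed was tested as the Hepa 1-6 response minus the AML12 response. Of the 39, 13 passed (33.3%, near the 30% of all genes). Of these, 6 were higher, against 17.2% of all genes, and 7 lower, against 12.8%.

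The 7 lower ones included the orosomucoids and haptoglobin. Orm2 responded by 0.41 ± 0.23 in Hepa 1-6 and 3.41 ± 0.23 in AML12, a difference in response of -3.01 ± 0.33 (adjusted p = 0.00058). Orm1 differed in response by -2.29 ± 0.53 (adjusted p = 0.015) and Hp by -2.34 ± 0.17 (adjusted p = 0.0001). Serpind1, with -1.93 in Hepa 1-6 and 0.98 in AML12, differed by -2.91 ± 0.54 (adjusted p = 0.0058), F2 by -1.22 ± 0.26 (adjusted p = 0.0099), Hpx by -0.95 ± 0.13 (adjusted p = 0.0017) and Rbp4 by -0.83 ± 0.18 (adjusted p = 0.011). In Hepa 1-6, the Hp ratio was -3.55 on both actinomycin D arrays and -3.55 and -3.79 in controls, where a detection floor was not tested.

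The 6 with a higher response in Hepa 1-6 were mainly genes that fell in AML12. Serpinf2 differed in response by 2.03 ± 0.23 (adjusted p = 0.00061), with ratios of 2.39 and 2.25 on the treated and on the control arrays of Hepa 1-6 alike. Ahsg differed by 1.54 ± 0.35, Apoh by 1.50 ± 0.46, Apoa1 by 1.33 ± 0.38 and Vtn by 1.31 ± 0.33, with adjusted p-values of 0.014, 0.043, 0.034 and 0.021. Serpinc1 rose in both lines as a mean of 2 features, of which 1 was lower with actinomycin D in AML12. Its response differed by 0.39 ± 0.12 (adjusted p = 0.04), which turned to -0.47 with its feature of higher mean ratio alone. Fgg gave 2.41 ± 0.53 in the added fit (adjusted p = 0.015). Without the first AML12 control, the second AML12 actinomycin D, the second Hepa 1-6 control or the first Hepa 1-6 actinomycin D array, the count of higher responses was 2. The calls of Apoa1, Apoh, Serpinc1 and Vtn were the ones lost as arrays were left out, with adjusted p of up to 0.10, 0.12, 0.12 and 0.071.

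**Figure D4:**
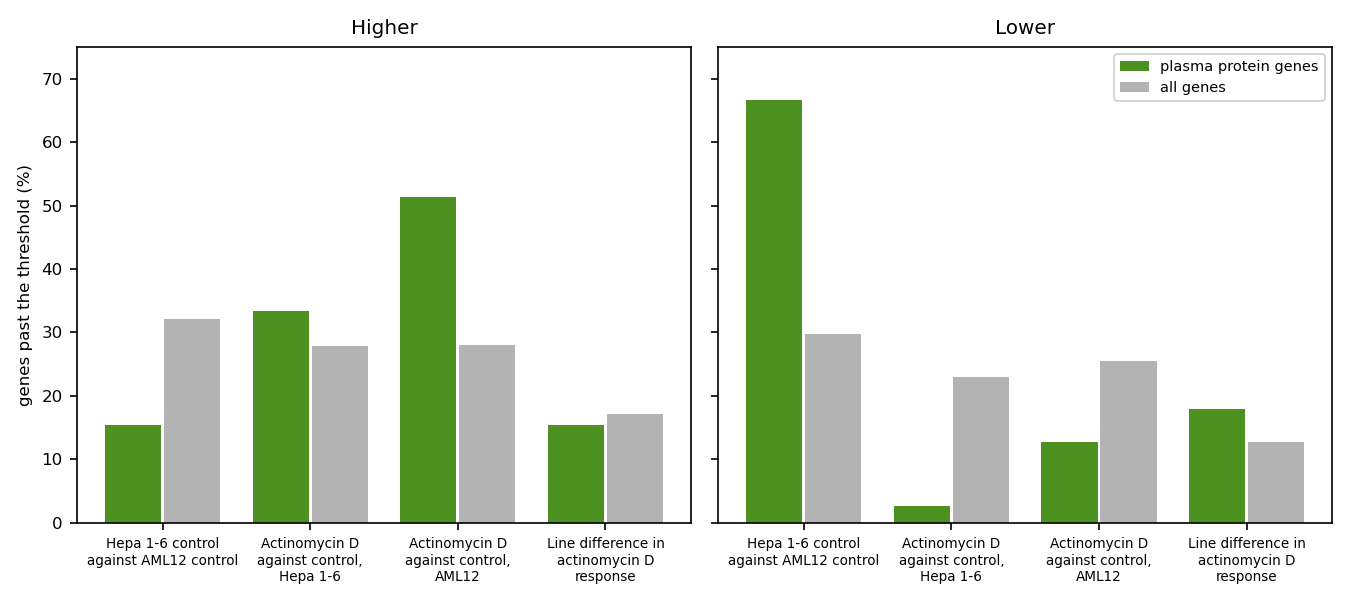
Share of genes past the threshold (y axis, percent) among the 39 plasma protein genes (green) and all 16549 genes tested (grey), higher on the left and lower on the right, in 4 comparisons. The green bar is above the grey one for lower ratios in Hepa 1-6 controls (66.7% and 29.8%). It is also above for rises with actinomycin D in AML12 (51.3% and 28%). It is only slightly above for rises with actinomycin D in Hepa 1-6 (33.3% and 27.9%) and for lower responses in the line difference (17.9% and 12.8%). Elsewhere it is below, as for falls with actinomycin D in Hepa 1-6 (2.6% and 23%).

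Prolactin moved none of the 39 plasma protein genes past the threshold in either line. In Hepa 1-6, 0 of 39 passed, against 0.0363% of all genes, and in AML12 0 of 39, against 1.27% of all genes (limma). At an unadjusted p under 0.05, 4 of the 39 lay in Hepa 1-6 (10.3%, beside 8.2% of all genes) and 7 in AML12 (17.9%, beside 16.9%). The median difference was -0.03 in Hepa 1-6 and 0.03 in AML12. In each line the 95% interval of the difference lay within a 2-fold change in either direction for 30 of the 39, and its median half-width was 0.45 on the log2 scale. The difference between the lines' responses passed for 0 of 39, against 0.121% of all genes, with 5 at an unadjusted p under 0.05. Of the 5 hepatocyte markers tested, 1 rose with prolactin in AML12 (20%, against 1.27% of all genes called in either direction) and 0 in Hepa 1-6. No tested marker of another cell type passed with prolactin in either line.

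Igfbp1 in AML12 was nearest to the threshold. Its log2 ratios were 4.02 and 4.82 with prolactin and 3.22 and 1.54 in controls, so both treated arrays lay above both controls. The difference was 2.04 ± 0.50 (95% interval 0.88 to 3.20, adjusted p = 0.10). It was 2.88 without the first control array, where it passed, and 1.20 without the second. In Hepa 1-6 the difference was 0.13 ± 0.50, with ratios of 6.71 and 7.21 with prolactin and 6.71 and 6.94 in controls.

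Further carriers in AML12 had small differences that did not pass. Cp had ratios of 1.59 and 1.75 with prolactin and 1.92 and 1.97 in controls (-0.27 ± 0.07, adjusted p = 0.11). Hp differed by -0.33 ± 0.12 (adjusted p = 0.23) and Rbp4 by 0.32 ± 0.13 (adjusted p = 0.26), while albumin was at 4.38 and 4.29 with prolactin and 4.35 and 4.12 in controls (0.10 ± 0.12). In Hepa 1-6 albumin was at 4.15 and 4.29 with prolactin and 4.25 and 4.35 in controls (-0.08 ± 0.12). The orosomucoids differed by -0.07 (Orm1) and -0.16 (Orm2) in Hepa 1-6 and by -0.37 and -0.24 in AML12.

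For the other roles, the members nearest to the threshold were as follows. Apob in AML12 was at 6.34 and 6.36 with prolactin and 6.06 and 5.83 in controls (0.41 ± 0.12, adjusted p = 0.15). Plg in Hepa 1-6 was at 0.69 and -0.42 with prolactin and -0.97 and -1.15 in controls (1.19 ± 0.36, adjusted p = 0.45). The plasminogen arrays of the groups did not overlap, yet one treated array lay above the reference pool and the other below it. Serpina3n gave differences of opposite sign, 1.15 ± 0.49 in Hepa 1-6 (adjusted p = 0.61) and -1.25 ± 0.49 in AML12 (adjusted p = 0.25), and the difference between the lines was 2.40 ± 0.70 (adjusted p = 0.30). Among complement genes, C4b in Hepa 1-6 differed by 0.33 ± 0.14 (adjusted p = 0.61) and Cfi by 0.98 ± 0.55. Fga differed by -0.53 ± 0.61 in Hepa 1-6 and 1.00 ± 0.61 in AML12, with AML12 arrays at 4.48 and 4.45 with prolactin above controls at 3.72 and 3.22. Ttr, in the added fit, differed by -0.84 ± 0.23 in Hepa 1-6 (adjusted p = 0.44) and 0.32 ± 0.23 in AML12 (adjusted p = 0.57).

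**Figure D5:**
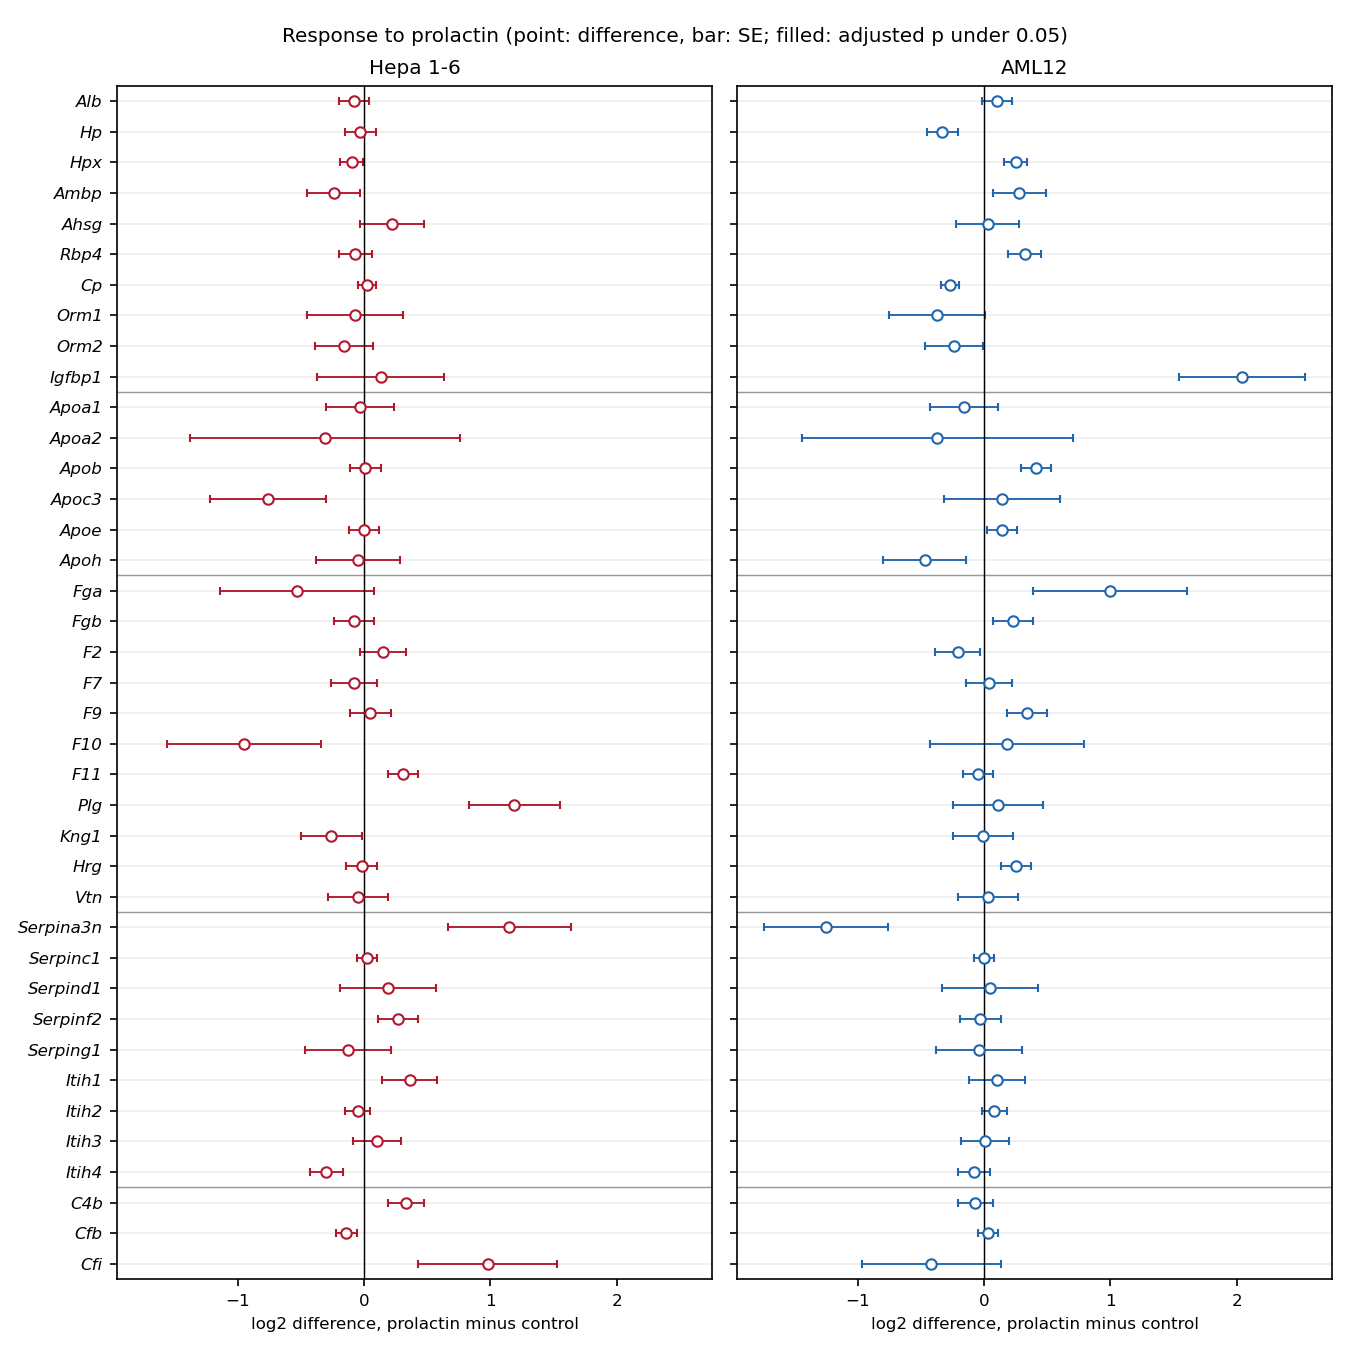
Log2 difference of prolactin minus control (x axis, point with ± SE) for the 39 genes, with Hepa 1-6 on the left and AML12 on the right. No point is filled, since none passed the threshold, and Igfbp1 in AML12, at 2.04, is farthest from 0.

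Spread between replicate arrays was wider for plasma protein genes than for all genes. In Hepa 1-6 the median SD of the 39 was 0.10 with actinomycin D, 0.15 with prolactin and 0.16 in controls. In AML12 it was 0.18 with actinomycin D and 0.16 in the other groups, beside 0.06 to 0.08 for all genes in the 6 groups. Serpind1 (1.02) and Plg (0.79) were the widest members in the treated Hepa 1-6 groups and F10 (1.29) in their controls. In AML12 the widest were Apoa2 (2.97), Cfi (0.85) and Igfbp1 (1.19), in the actinomycin D, prolactin and control groups.

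Plasma protein genes outside the 46, from a list of 57 of which 42 were tested, also changed with actinomycin D. In Hepa 1-6, 20 rose (47.6%, against 27.9% of all genes) and 3 fell (7.1%, against 23%). In AML12, 17 rose (40.5%, against 28%) and 3 fell (7.1%, against 25.5%). The named rises were Hc, encoding complement C5 (2.58 ± 0.15), and Apof (2.50 ± 0.32) in Hepa 1-6, and Lrg1 (3.37 ± 0.19) and the thyroxine-binding globulin gene Serpina7 (2.52 ± 0.50) in AML12. Lrg1 fell by 0.60 in Hepa 1-6 (-0.60 ± 0.19, adjusted p = 0.03), and its difference in response was -3.97 ± 0.27 (adjusted p = 6.8e-05). The cholesterol acyltransferase gene Lcat also fell in Hepa 1-6 (-0.60 ± 0.12), and Proz (-0.84 ± 0.23) and Igfals (-0.49 ± 0.12) fell in AML12. In controls 9 of the 42 were higher in Hepa 1-6 (21.4%, against 32.1%), led by Fetub (3.31 ± 0.08) and C1s1 (3.10 ± 0.07), and 21 were lower (50%, against 29.8%), led by Crp (-5.16 ± 0.36) and Apof (-4.57 ± 0.32). Prolactin moved 0 of the 42 past the threshold in either line.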

How the data were processed

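RNA of 12 samples was measured on two-colour Agilent arrays, 1 array per sample. Per the submitters' processing notes, the authors used Agilent Feature Extraction. Which version ran, and how it was set, is not given in the sources used here. Each feature has 1 deposited value per array. The deposited values were read as log10 ratios, the software's convention, with Cy5 over Cy3. Exact zeros, 12.7% of values, were taken as features with no ratio, since no more than 97 to 118 further values on an array came within 0.001 of it. No background or saturation marks were used. Precision is limited by the number of arrays.

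Ratios were turned into log2. Features were named from the platform annotation (33653 with 1 symbol, 56 with several, 11309 with none), kept where all 12 arrays had a ratio, and averaged per gene. One limma model (limma 3.58.1, R 4.3.3; lmFit, contrasts.fit, eBayes, two-sided) held a mean for each of 6 groups, with 6 residual degrees of freedom and 1.84 from the prior. P-values were adjusted by Benjamini-Hochberg over all 16549 genes, and genes under 0.05 are said to have risen, fallen or changed. The code was tested on simulated data. Any measured member may be named, with full statistics for members past the threshold or nearest to it in a role and comparison. Of the 57 other plasma protein genes, at most the 2 largest rises and falls per comparison are named. The members and lists were chosen with earlier results of these data known. The series design calls the replicates biological.

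Alternatives were median centring, quantile normalization, only the feature of a gene whose mean ratio was highest, a ratio on at least 1 array of every group, zeros kept as a ratio of 1, leaving out the lowest 20% of mean ratios, the replicate block, the compared groups alone, a robust prior and leaving out each array. A fit on genes with ratios on all compared arrays was added after seeing the data. Replicate numbers were not taken to pair arrays: deviations of same-numbered arrays correlated at -0.05 to 0.16 over 15 pairs of groups, 1 of them over 0.1. Promoters come from a RefSeq table (GRCm38.p6). Summaries and figures used numpy 2.4.6, pandas 2.3.3, matplotlib 3.10.9 and Python 3.11.15.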

Additional observations from a re-analysis of the deposited data

Results flagged for a closer look

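The response to actinomycin D differed between the lines for 13 of the 39 members tested (33.3%, near the 30% of all genes). Each passed the threshold in limma's test of the difference itself (Hepa 1-6 response minus AML12 response, log2). This difference was positive for Serpinf2 (2.03), Ahsg (1.54), Apoh (1.50), Apoa1 (1.33), Vtn (1.31) and Serpinc1 (0.39). All of these but Serpinc1 fell in AML12 and did not pass in Hepa 1-6. The difference was negative for Orm2 (-3.01), Serpind1 (-2.91), Hp (-2.34), Orm1 (-2.29), F2 (-1.22), Hpx (-0.95) and Rbp4 (-0.83). The calls of Apoa1, Apoh, Serpinc1 and Vtn were lost without at least 1 array. Serpinc1 also changed sign with its feature of higher mean ratio alone. Groups of 2 arrays were not searched for outlying arrays.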

How the results depend on the processing

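Quantile normalization gave 9 falls with actinomycin D in AML12 (5 as reported), and 8 rises and 6 falls in Hepa 1-6 (13 and 1). With the compared groups alone, 0 members fell in Hepa 1-6. Differences that changed sign with quantile normalization were those of Cfb (-0.19 in AML12, -0.21 in Hepa 1-6) and Rbp4 (-0.0786 in AML12) with actinomycin D. With the feature of highest mean ratio, Serpinc1 turned to -0.47 for the difference in response and 0.15 between controls. The causes were not tested, except that the 2 features of Serpinc1 disagree.

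Leaving out 1 array at a time gave 16 to 21 rises and 3 to 6 falls with actinomycin D in AML12, and 8 to 14 rises and 1 fall in Hepa 1-6. The difference in response was higher for 2 to 5 members (6 with all arrays) and lower for 7 to 9, and between controls 4 to 6 were higher and 22 to 26 lower. For prolactin in AML12 the range was 0 to 1 rises, the 1 being Igfbp1 without the first control. All other prolactin counts stayed at 0. The replicate block gave 19 rises and 5 falls with actinomycin D in AML12, 14 and 1 in Hepa 1-6, 6 higher and 7 lower for the difference in response, 5 and 25 between controls, and 0 for prolactin.

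Calls kept under every alternative numbered 14 of 25 for actinomycin D in AML12, 5 of 14 in Hepa 1-6, 9 of 13 for the difference in response and 24 of 32 between controls. With 2 arrays per group, the median 95% half-width for prolactin was 0.45, before any adjustment over all genes. Larger differences also went uncalled, up to 2.04 in AML12 and 1.19 in Hepa 1-6. Effects of prolactin above that half-width may thus have been missed too. Low ratios could not be checked against background.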
